A study of Mus musculus with 12 samples.

Results

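Rab GTPases are the small membrane-bound switches of vesicle traffic, and their RNA was followed in fully grown mouse oocytes with a gene trap in Marf1, which encodes an RNA-binding ribonuclease of the oocyte, after injection of mRNA for the protein or without it. Genes were taken as members when their symbol was Rab followed by a number and at most a letter and a further digit, which found 58 of the 24254 genes in the deposited table. Of these 58, 43 reached an FPKM of 1 (read fragments adjusted for transcript length and for library size) in at least 4 of the 12 libraries and could be tested. The libraries form 3 groups of 4, and all carry the gene trap. GTWT oocytes received mRNA for wild type MARF1. GTD272 oocytes received mRNA for MARF1 carrying the D272 mutation that the group is named for. GT oocytes carry the gene trap, and no injection or culture is named for them. The donors were C57BL/6 mice aged 3 weeks that had received 5 IU of PMSG, a hormone that stimulates follicles, 46 h earlier, and each library held 80 oocytes. Injected oocytes were kept for 48 h with milrinone, which holds them at the germinal vesicle stage, before meiosis resumes. No control-injected library is named in the labels, so in a comparison with GT the injected protein, the injection and the culture cannot be told apart. The labels do not say how much MARF1 protein was made or that the libraries of a group came from separate animals, so p-values measure only the spread between these libraries, which may be technical.

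A Rab protein sits on the membrane of 1 kind of compartment while bound to GTP and recruits motors, tethers and fusion factors there. Exchange factors (GEFs) load it with GTP, GTPase-activating proteins (GAPs) turn it off, and escort proteins and GDP dissociation inhibitors carry its prenylated form through the cytosol. In oocytes, Rab11a-positive vesicles carry the actin nucleators that move the spindle, and Rab27a and Rab3a are linked to the release of cortical granules, the secretory vesicles of the oocyte.

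The libraries looked like oocyte RNA. The 10 oocyte markers examined summed to 8159 to 8993 FPKM per library, against 16.2 to 24.02 FPKM for 10 granulosa markers, of which 3 reached an FPKM of 1 in any library. Kitl (10.3 to 15.6 FPKM) and Cyp19a1 (3.36 to 6.88 FPKM) reached an FPKM of 1 in every library, and Gja1 only in GT replicate 1. Theca and stroma markers reached it for 0 of 6, and 5 of 6 blood markers were listed at 0. Marf1 had 13.5, 24.1, 13.6 and 19.0 FPKM in GTWT, 9.73, 9.10, 9.66 and 7.99 FPKM in GTD272 and 1.27, 1.71, 1.83 and 1.59 FPKM in GT. Marf1 RNA was therefore 0.84 higher on the log2 scale in GTWT than in GTD272 (SE 0.16, limma adjusted p = 0.0188), and the injected groups differ in that level as well as in the residue. Leaving out GTD272 replicates 2 or 4 or GTWT replicate 4, 1 at a time, ended this call (adjusted p = 0.0505 to 0.0549). Relative depth, read from the steps of low FPKM values, was 66.2% to 84.3% of the deepest library in GTWT, 64.8% to 82.4% in GTD272 and 55.4% to 100% in GT.

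Several of the results below concern close paralogs, so the bases that separate them are shown first. Each line gives 60 bases of coding sequence around the codons of the G3 motif, which contacts the last phosphate of GTP, from GENCODE M21 transcripts (GRCm38, the assembly of mm10). Capitals mark bases that differ from the first member of the family. Rab1, the symbol used in the deposited table, is Rab1a in the annotation.
Rab1 (chromosome 11, plus strand, coding bases 166 to 225): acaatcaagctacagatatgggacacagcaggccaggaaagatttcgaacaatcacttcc
Rab1b (chromosome 19, minus strand, coding bases 166 to 225): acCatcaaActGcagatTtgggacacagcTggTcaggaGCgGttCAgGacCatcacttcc
Rab5a (chromosome 17, plus strand, coding bases 202 to 261): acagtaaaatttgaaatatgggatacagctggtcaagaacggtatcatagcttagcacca
Rab5b (chromosome 10, minus strand, coding bases 202 to 261): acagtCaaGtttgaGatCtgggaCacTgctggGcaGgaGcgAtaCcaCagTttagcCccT
Rab5c (chromosome 11, minus strand, coding bases 205 to 264): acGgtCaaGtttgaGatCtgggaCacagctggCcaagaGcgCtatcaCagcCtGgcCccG
Even in this conserved stretch 13 of 60 bases differed between Rab1 and Rab1b. Rab5a differed from Rab5b at 15 bases and from Rab5c at 14. Over the whole coding sequence Rab1 and Rab1b were 77.6% identical, and the 3 Rab5 genes were 74.3% to 77.7% identical in pairs. The longest run of identical bases between transcripts was 38 for the Rab1 pair and 35 among the Rab5 genes, shorter than the 150-base reads.

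Rab RNA levels spanned from above 200 FPKM to 0. Rab38, known from its role in melanosome and other lysosome-related organelle traffic, was the highest member, at 215, 241, 227 and 213 FPKM in GTWT, 232, 237, 211 and 206 FPKM in GTD272 and 239, 230, 237 and 234 FPKM in GT. The groups overlapped, and its difference between GTWT and GT was -0.07 on the log2 scale (95% interval -0.19 to 0.04). After it by mean FPKM over the 12 libraries came Rab14 (160 FPKM, endosome to Golgi traffic), Rab9 (148 FPKM, late endosome to Golgi), Rab7 (134 FPKM, late endosome and lysosome fusion), Rab21 (129 FPKM, integrin endocytosis), Rab35 (122 FPKM, fast recycling), Rab5a (108 FPKM, early endosome fusion) and Rab40c (103 FPKM, a Rab joined to a ubiquitin ligase). These 8 genes held 51.1% of the FPKM summed over all Rab genes. Another 24 members averaged between 10 and 100 FPKM, 9 between 1 and 10 FPKM and 17 under 1 FPKM.

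Neighbours in this order mostly could not be separated. Over the 42 neighbouring pairs of the tested members, the ranges over the 12 libraries overlapped in 39. The 3 gaps lay between Rab38 and Rab14, between Rab5b and Rab1b and between Rab1b and Rab18. Summed over all 58 Rab genes, levels were 2218, 2195, 2198 and 2129 FPKM in GTWT, 2255, 2260, 2205 and 2132 FPKM in GTD272 and 2247, 2293, 2230 and 2214 FPKM in GT, and the 3 groups overlapped. For the 32 tested members averaging 10 FPKM or more, the median coefficient of variation within a group was 8.12% in GTWT, 6.93% in GTD272 and 5.75% in GT. It was 26.5%, 24.5% and 20.2% in the same groups for the 11 tested members under 10 FPKM.

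**Figure D1:**
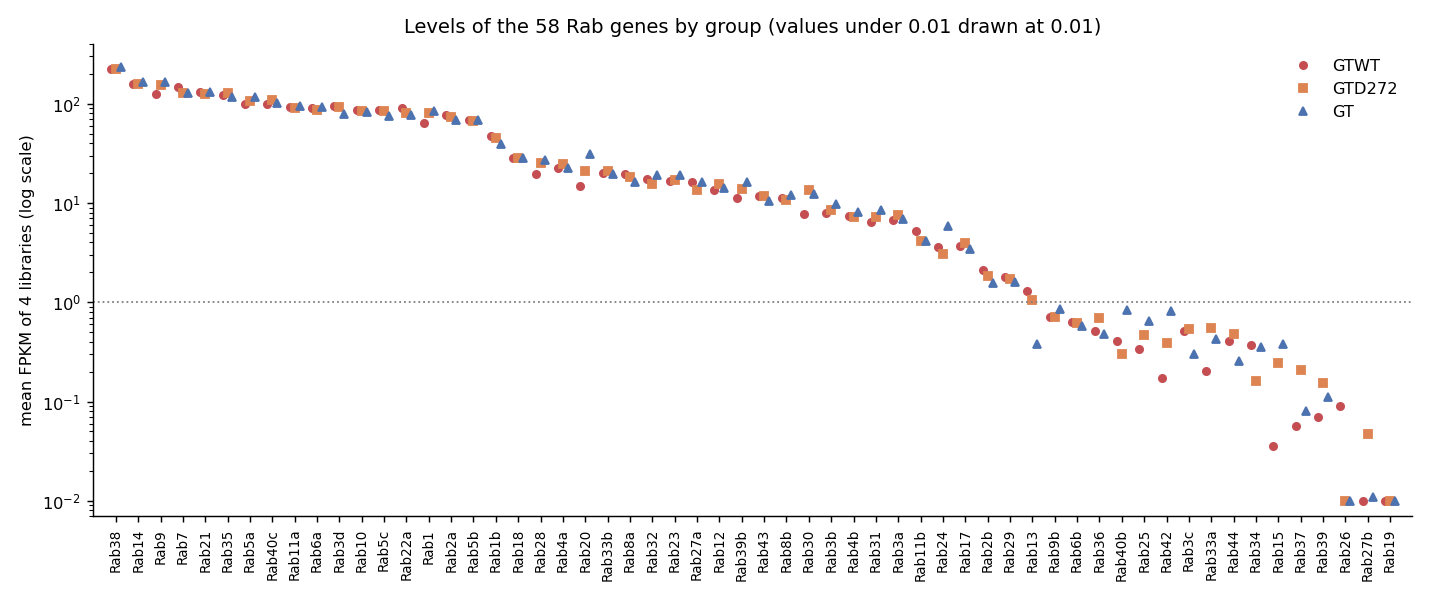
Mean FPKM of the 4 libraries of each group (log axis) for the 58 Rab genes, ordered by the mean over all 12 libraries, with GTWT as circles, GTD272 as squares and GT as triangles. The dotted line marks an FPKM of 1, and 17 genes average below it over the 12 libraries.

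The 15 members that could not be tested were all low. Their highest FPKM in any library was 2.03 for Rab42, 1.42 for Rab40b, 1.14 for Rab34 and 1.11 for Rab36, and under 1 for Rab6b, Rab25, Rab3c, Rab33a, Rab44, Rab15, Rab37, Rab39, Rab26 and Rab27b, while Rab19 was listed at 0 in all 12. Several of these are known from other tissues, such as Rab25 from epithelia and Rab3c, Rab15 and Rab26 from neurons or secretory cells.

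The comparison of GTWT with GT asks what changes after mRNA for wild type MARF1 is injected. Among the 43 Rab genes tested, 7 fell (Rab1, Rab5a, Rab9, Rab20, Rab28, Rab30 and Rab39b), 5 rose (Rab1b, Rab3d, Rab5c, Rab7 and Rab22a) and 31 did not pass the test. The test was limma on log2(FPKM + 1) over all 11687 genes with enough signal, at a Benjamini-Hochberg adjusted p under 0.05. Over all genes tested 10.5% fell and 6.14% rose, and the Rab shares of 16.3% and 11.6% rest on 7 and 5 genes. The median log2 difference was -0.02 for the Rab genes and -0.01 for all genes tested. The falls ran from -0.24 for Rab5a to -1.01 for Rab20 and the rises from 0.19 for Rab5c to 0.27 for Rab3d. In 12 Rab genes the 4 GTWT libraries did not overlap the 4 GT libraries, 8 of them lower (12.6% of all genes tested) and 4 higher (9.32% of all genes tested). In the authors' deposited table, q-values under 0.05 were given to 9 lower Rab genes (10.5% of all genes tested) and 5 higher ones (8.03%), among them Rab24, Rab31 and Rab11b, which did not pass here, and not Rab5c. RNA was pooled from many oocytes, so a lower level in fewer oocytes and less RNA in each cannot be told apart.

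**Figure D2:**
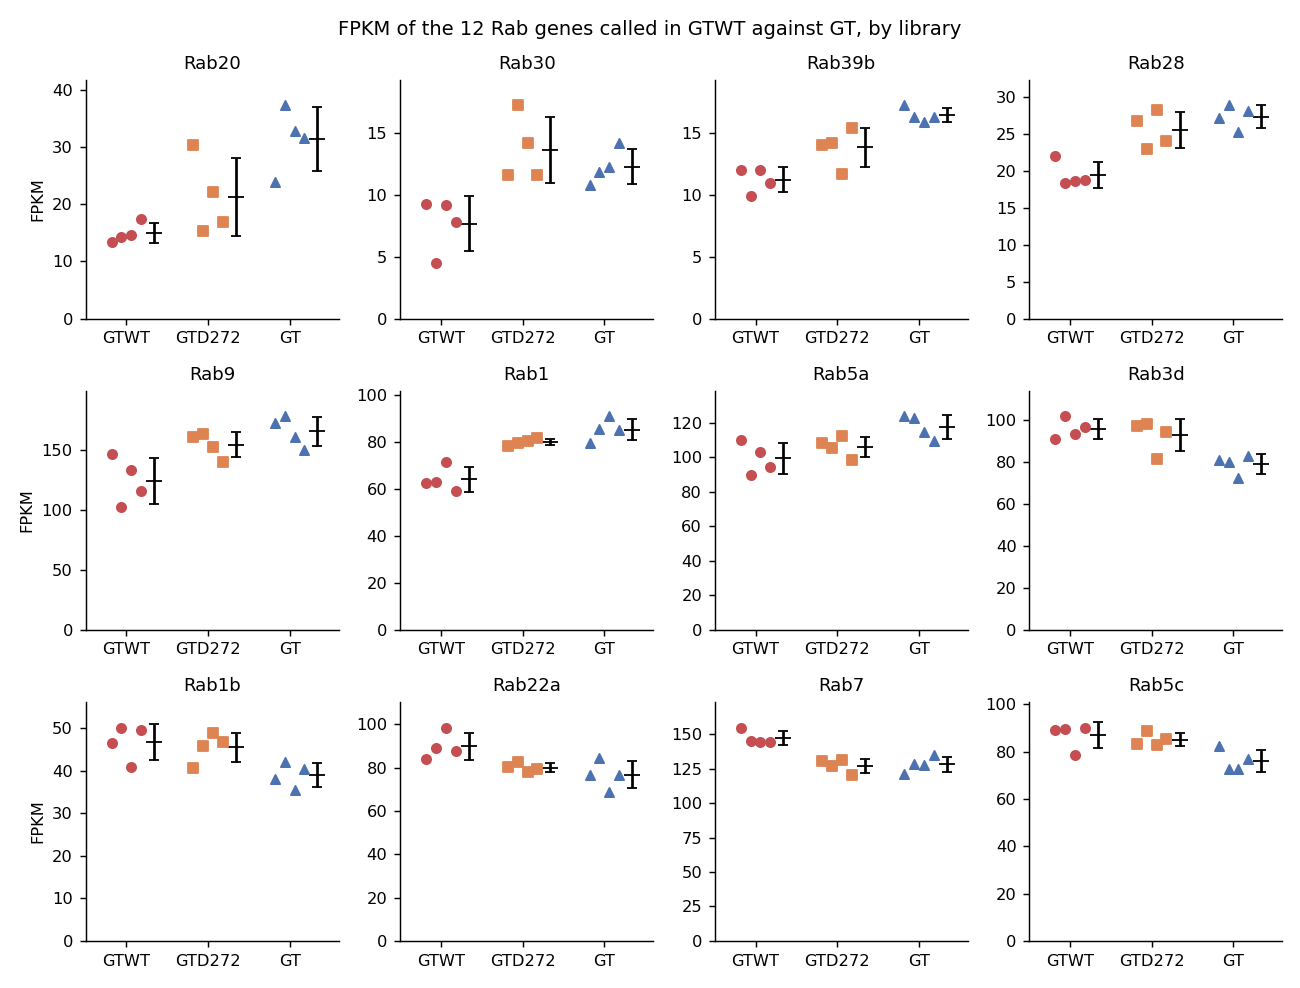
FPKM of the 12 Rab genes that passed the test in GTWT against GT, 1 panel per gene, with a point for each library (GTWT, GTD272 and GT from left to right) and the mean with its SD in black. The first 7 panels fell in GTWT, from Rab20 (-1.01) to Rab5a (-0.24), and the last 5 rose, from Rab3d (0.27) to Rab5c (0.19 on the log2 scale).

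The split between falls and rises moved with the scaling. With quantile normalization 6 Rab genes fell and 7 rose, Rab5a being lost and Rab2a and Rab13 added, of which Rab13 passed the filter on low values although no GT library reached an FPKM of 1. Over all genes tested, falls made up 49.8% of calls with quantile normalization and 63.0% without it. With a single library left out, 3 rises passed when it was GT replicate 1, GT replicate 4, GTD272 replicate 4, GTWT replicate 1 or GTWT replicate 4, and 2 when it was GT replicate 3 or GTWT replicate 2.

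Rab genes of endoplasmic reticulum and Golgi traffic gave 3 of the falls and 1 of the rises among 10 tested. Rab1 (chromosome 11, 20201412 to 20226856, GRCm38), which acts between the endoplasmic reticulum and the Golgi, had 62.7, 63.1, 71.6 and 59.0 FPKM in GTWT, 78.4, 79.4, 80.5 and 81.7 FPKM in GTD272 and 79.6, 85.4, 90.9 and 85.3 FPKM in GT. All 4 GTWT libraries lay below all 8 others. In GTWT against GT, Rab1 fell by 0.41 (log2, SE 0.06, limma adjusted p = 0.000867).

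Rab1b (chromosome 19, 5099207 to 5106996), its close paralog, had 46.6, 50.2, 41.0 and 49.6 FPKM in GTWT, 40.7, 45.7, 48.9 and 46.7 FPKM in GTD272 and 38.0, 42.0, 35.6 and 40.3 FPKM in GT. GTWT replicate 3 lay within the GT range and the other GTWT libraries above it. Rab1b rose by 0.26 in GTWT against GT (SE 0.08, limma adjusted p = 0.0423), a call ended by leaving out, 1 at a time, GT replicates 1, 3 and 4, GTD272 replicates 2 and 4 and GTWT replicates 1, 2 and 4 (adjusted p = 0.0506 to 0.115).

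Rab39b (chromosome X, 75572045 to 75578231), a neuronal Rab linked to intellectual disability in humans, had 11.9, 9.89, 12.01 and 10.9 FPKM in GTWT, 13.99, 14.2, 11.7 and 15.4 FPKM in GTD272 and 17.2, 16.3, 15.9 and 16.3 FPKM in GT. GT libraries lay above all 8 others, and GTD272 lay between with 1 library inside the GTWT range. Rab39b fell by 0.52 in GTWT against GT (SE 0.09, limma adjusted p = 0.00241).

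Rab30 (chromosome 7, 92741637 to 92844535), a Golgi Rab, had 9.29, 4.49, 9.22 and 7.79 FPKM in GTWT, 11.6, 17.3, 14.2 and 11.6 FPKM in GTD272 and 10.8, 11.8, 12.3 and 14.2 FPKM in GT. All GTWT libraries were lower than all others, with replicate 2 lowest. Rab30 fell by 0.65 in GTWT against GT (SE 0.19, limma adjusted p = 0.0300), a call ended by leaving out, 1 at a time, GT replicates 2, 3 and 4 and GTWT replicates 2 and 4 (adjusted p = 0.0550 to 0.0771). The 6 other tested genes of this role, Rab6a, Rab2a, Rab18, Rab33b, Rab43 and Rab2b, differed by -0.02 to 0.24 and did not pass. Exons of Rab6a and Rab2b overlap those of Mrpl48 and Tox4 on the opposite strand, over 409 and 158 bases. Mrpl48 was at 37.3 to 65.1 FPKM and Tox4 at 14.9 to 19.6 FPKM over the 12 libraries, so the Rab6a and Rab2b values are uncertain.

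Early endosome Rab genes gave 2 falls and 2 rises among 10 tested. Rab20 (chromosome 8, 11453390 to 11478640), a Rab of endosomes and phagosomes, had 13.4, 14.3, 14.6 and 17.4 FPKM in GTWT, 30.4, 15.4, 22.2 and 16.9 FPKM in GTD272 and 23.8, 37.3, 32.8 and 31.6 FPKM in GT. GTWT libraries lay below all GT libraries, and GTD272 libraries spread across both ranges. Rab20 fell by 1.01 in GTWT against GT (SE 0.18, limma adjusted p = 0.00255), the largest fall among the Rab genes tested. Its exons overlap those of E230013L22Rik on the opposite strand over 356 bases, and since no source names a stranded count, their reads cannot be told apart there. That gene was at 0.827 to 2.02 FPKM in GTWT and 2.08 to 3.28 FPKM in GT. Rab5a, Rab7 and Rab22a also share exon bases with an opposite-strand gene (Pp2d1, Gm5577 and Mir6340), none of which exceeded 0.887 FPKM in any library.

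Rab5a (chromosome 17, 53479234 to 53507678), needed for fusion of early endosomes, had 110, 90.1, 103 and 94.6 FPKM in GTWT, 108, 105, 112 and 98.4 FPKM in GTD272 and 124, 123, 115 and 109 FPKM in GT. GTWT replicate 1 lay within the GT range, and the others below it. Rab5a fell by 0.24 in GTWT against GT (SE 0.07, limma adjusted p = 0.0254), a call ended by leaving out, 1 at a time, GT replicates 1 and 2 and GTWT replicates 2 and 4 (adjusted p = 0.0689 to 0.0741). Once dependence on GC content and length was taken out, the difference was -0.10 (limma adjusted p = 0.349).

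Rab5c (chromosome 11, 100715003 to 100738215), its paralog on the same compartment, had 88.9, 89.6, 78.6 and 90.1 FPKM in GTWT, 83.3, 88.7, 82.6 and 85.5 FPKM in GTD272 and 82.4, 72.6, 72.5 and 76.8 FPKM in GT. GTWT replicate 3 and GT replicate 1 were where the groups overlapped. Rab5c rose by 0.19 in GTWT against GT (SE 0.06, limma adjusted p = 0.0433), and this call ended on leaving out, 1 at a time, GT replicates 2, 3 and 4, GTD272 replicates 1, 3 and 4 and GTWT replicates 1, 2 and 4 (adjusted p = 0.0521 to 0.114). Rab5b, the remaining paralog, had 68.0, 69.3, 72.5 and 66.0 FPKM in GTWT and 65.0, 72.4, 71.4 and 67.0 FPKM in GT, a log2 difference of 0.00 (95% interval -0.13 to 0.13).

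Rab22a (chromosome 2, 173659836 to 173702186), which sorts cargo from early endosomes to recycling tubules, had 83.8, 89.1, 98.5 and 87.8 FPKM in GTWT, 80.1, 82.6, 78.1 and 79.4 FPKM in GTD272 and 76.7, 84.4, 68.9 and 76.7 FPKM in GT. GTWT libraries lay above all GTD272 libraries, and GT replicate 2 lay inside the GTWT range. Rab22a rose by 0.23 in GTWT against GT (SE 0.06, limma adjusted p = 0.0288), a call ended by leaving out, 1 at a time, GT replicates 1, 3 and 4 and GTWT replicates 2 and 3 (adjusted p = 0.0554 to 0.0836). Rab14 had 160, 156, 161 and 151 FPKM in GTWT and 164, 162, 170 and 166 FPKM in GT, which do not overlap, with a difference of -0.07 that did not pass. Rab21 was at 128, 140, 135 and 128 FPKM in GTWT and 131, 133, 138 and 126 FPKM in GT, and the groups overlapped.

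Late endosome and lysosome Rab genes gave 1 rise and 1 fall among 7 tested. Rab7 (chromosome 6, 87999106 to 88045270), the Rab that drives fusion of late endosomes with lysosomes, had 155, 145, 145 and 145 FPKM in GTWT, 131, 127, 131 and 120 FPKM in GTD272 and 121, 128, 128 and 135 FPKM in GT. Every GTWT library lay above the 8 others. Rab7 rose by 0.20 in GTWT against GT (SE 0.05, limma adjusted p = 0.0105).

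Rab9 (chromosome X, 166457251 to 166479867), which returns mannose 6-phosphate receptors from late endosomes to the Golgi, had 146, 103, 133 and 115 FPKM in GTWT, 161, 163, 153 and 140 FPKM in GTD272 and 173, 178, 161 and 150 FPKM in GT. GTWT libraries lay below all GT libraries and varied most, and GTD272 overlapped both. Rab9 fell by 0.42 in GTWT against GT (SE 0.10, limma adjusted p = 0.00930). The 5 others of this role, Rab38, Rab32, Rab24, Rab29 and Rab9b, did not pass, with differences of -0.54 for Rab24 to 0.04 for Rab29.

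Recycling and surface delivery Rab genes gave no call in GTWT against GT under limma among 9 tested, and Rab13 and Rab11b had the lowest p-values of them. Rab13, a Rab of epithelial junctions, was at 1.30 ± 0.408 FPKM in GTWT and 0.378 ± 0.307 FPKM in GT (SD, n = 4), a difference of 0.75 that did not pass (limma adjusted p = 0.0584). It reached an FPKM of 1 in all 4 GTWT libraries, 2 of 4 GTD272 libraries and 0 of 4 GT libraries. It was thus tested only through its high values in the injected groups, and neither its place among the 4 higher genes without overlap nor its calls under other settings is read as a result. Rab11a, the recycling endosome Rab with the best known part in oocyte actin, had 91.4, 93.4, 90.0 and 93.3 FPKM in GTWT, 82.6, 95.6, 94.3 and 90.9 FPKM in GTD272 and 97.3, 102, 91.9 and 91.7 FPKM in GT. The groups overlapped, and its log2 difference between GTWT and GT was -0.06 (95% interval -0.17 to 0.06). Rab11b, its paralog, had 5.08, 4.85, 5.61 and 5.33 FPKM in GTWT, 4.02, 4.36, 4.17 and 3.94 FPKM in GTD272 and 3.91, 4.13, 3.22 and 5.22 FPKM in GT. GT replicate 4 lay inside the GTWT range, and the difference of 0.29 did not pass in limma (adjusted p = 0.122), while the authors' deposited table gives a q-value of 0.0354. Rab35 had 125, 129, 106 and 127 FPKM in GTWT and 118, 116, 113 and 116 FPKM in GT, and GTWT replicate 3 was the lowest of these 8 libraries.

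Among Rab genes of regulated exocytosis 1 of 4 tested passed. Rab3d (chromosome 9, 21907491 to 21918199), a secretory granule Rab of exocrine cells, had 91.3, 102, 93.5 and 96.7 FPKM in GTWT, 97.3, 98.1, 81.6 and 94.2 FPKM in GTD272 and 81.3, 80.3, 72.4 and 82.8 FPKM in GT. GTWT libraries were all above GT, and GTD272 replicate 3 alone of its group lay within the GT range. Rab3d rose by 0.27 in GTWT against GT (SE 0.07, limma adjusted p = 0.0133). Rab3a, the synaptic vesicle Rab, was at 6.45, 9.34, 5.40 and 5.77 FPKM in GTWT and 7.32, 10.0, 6.19 and 3.88 FPKM in GT. Rab3b was at 7.82, 9.35, 8.16 and 6.02 FPKM in GTWT and 8.39, 9.48, 10.7 and 10.1 FPKM in GT, with a difference of -0.28 that did not pass in limma (adjusted p = 0.120). Rab27a had 18.01, 14.4, 17.8 and 15.1 FPKM in GTWT, 12.3, 12.2, 15.04 and 14.3 FPKM in GTD272 and 15.8, 16.2, 16.2 and 16.3 FPKM in GT, so that GTD272 lay below every GT library.

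Of the 3 tested genes with a role in cilia or another role, Rab28 passed. Rab28 (chromosome 5, 41624973 to 41708193), a ciliary Rab whose loss causes cone-rod dystrophy in humans, had 22.1, 18.4, 18.7 and 18.7 FPKM in GTWT, 26.8, 22.99, 28.3 and 24.01 FPKM in GTD272 and 27.2, 28.9, 25.2 and 28.1 FPKM in GT. All GTWT libraries lay below the 8 others. Rab28 fell by 0.47 in GTWT against GT (SE 0.08, limma adjusted p = 0.00239). Rab40c had 102, 88.6, 103 and 99.7 FPKM in GTWT, 112, 107, 103 and 111 FPKM in GTD272 and 97.9, 101, 99.9 and 110 FPKM in GT, and did not pass in any comparison. The calls of Rab1, Rab3d, Rab7, Rab9, Rab20, Rab28 and Rab39b in GTWT against GT held under all 21 alternatives run, leaving out each library included.

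The Rab1 and Rab5 families each had a member called lower and a member called higher in GTWT against GT. Neither Rab5 call passed with GC and length trends removed (limma adjusted p = 0.349 for Rab5a and 0.0607 for Rab5c). The balance between members uses the same values as those calls, so it adds no support to them and is given here as a description. Rab1 RNA was 1.35, 1.26, 1.75 and 1.19 times that of Rab1b in GTWT, 1.93, 1.74, 1.65 and 1.75 times in GTD272 and 2.10, 2.03, 2.55 and 2.12 times in GT. The GT ratios lay above all 8 others, and GTD272 lay between with part of its range inside that of GTWT. The sum of both genes was 111 ± 2.33 FPKM in GTWT, 126 ± 4.64 FPKM in GTD272 and 124 ± 4.53 FPKM in GT (SD, n = 4).

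Rab5a RNA was 1.24, 1.01, 1.31 and 1.05 times that of Rab5c in GTWT, 1.30, 1.19, 1.36 and 1.15 times in GTD272 and 1.502, 1.69, 1.58 and 1.43 times in GT. Both injected groups lay below every GT library and overlapped each other. The sum of Rab5a, Rab5b and Rab5c was 255 ± 8.07 FPKM in GTWT, 258 ± 7.16 FPKM in GTD272 and 263 ± 8.23 FPKM in GT (SD, n = 4), so the groups overlapped in the family total. For Rab11a over Rab11b the ratio was 16.0 to 19.2 in GTWT, 20.6 to 23.1 in GTD272 and 17.6 to 28.6 in GT.

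**Figure D3:**
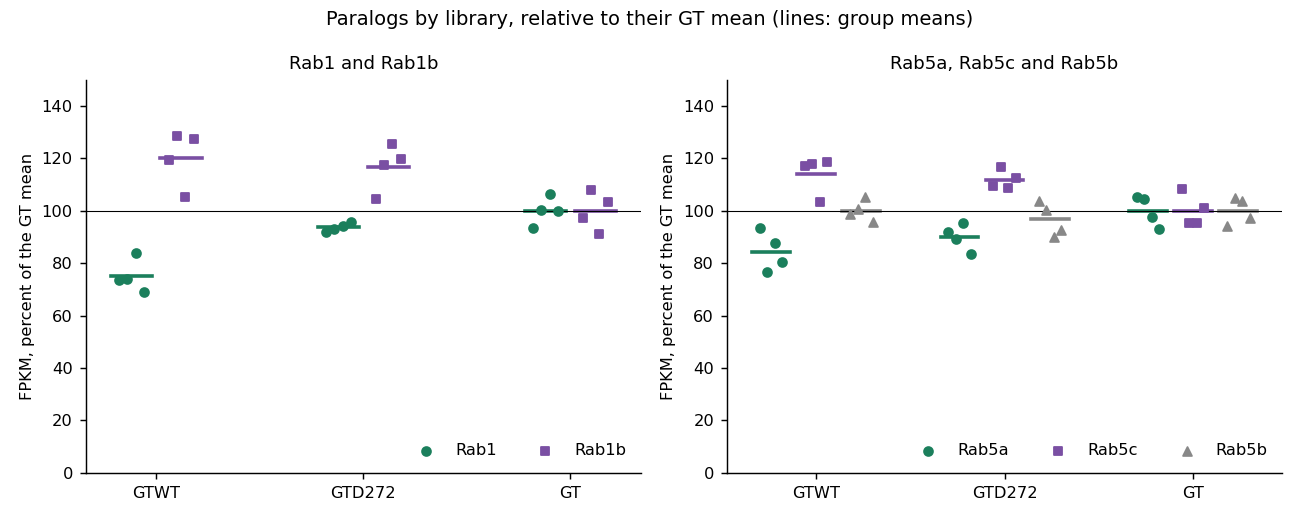
FPKM of Rab1 paralogs (left) and Rab5 paralogs (right) in each library as a percent of the same gene's GT mean, with lines at the group means. In GTWT, Rab1 and Rab5a sit below the 100 line in every library and Rab1b and Rab5c above it, while Rab5b lies around it.

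GTD272 was set against GT to ask which transcripts follow injection of mRNA for the mutated protein. In limma 0 of the 43 Rab genes passed, against 2.95% of all genes tested, and 12 Rab genes were at an unadjusted p under 0.05 (7 lower and 5 higher), against 19.0% of all genes. The 5 higher include Rab13, which was tested only through its high values in the injected groups and is not read as a result. The lowest unadjusted p belonged to Rab3d, at a difference of 0.22 (SE 0.07, limma adjusted p = 0.0840). Rab24 differed by -0.76 (adjusted p = 0.0914) and Rab20 by -0.57 (adjusted p = 0.107). The authors' deposited table gives a q-value under 0.05 to 1 lower Rab gene, Rab24 (0.0208), against 3.59% of all genes tested, and to 1 higher one, Rab3d (0.0341), against 2.73%. Rab24, a Rab of autophagy, overlaps Prelid1 on the opposite strand over 830 bases, and Prelid1 was at 17.5 to 19.2 FPKM in GTD272 and 29.4 to 38.7 FPKM in GT, so the Rab24 value is uncertain. Without GTD272 replicate 1 Rab20 passed as lower (-0.75, adjusted p = 0.0353), and without GTD272 replicate 3 Rab3d passed as higher (0.28, adjusted p = 0.0404).

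For the 12 Rab genes called in GTWT against GT, the differences in GTD272 against GT can be set beside them, though both comparisons share the GT libraries. The 12 were chosen by their difference in GTWT, so a smaller value in GTD272 is not read as a weaker effect. Rab3d was at 0.27 in GTWT and 0.22 in GTD272, Rab1b at 0.26 in GTWT and 0.22 in GTD272, and Rab5c at 0.19 in GTWT and 0.16 in GTD272. Rab22a was at 0.23 in GTWT and 0.06 in GTD272, and Rab7 at 0.20 in GTWT and -0.01 in GTD272. Among the falls, Rab20 was at -1.01 in GTWT and -0.57 in GTD272, Rab39b at -0.52 in GTWT and -0.24 in GTD272, and Rab5a at -0.24 in GTWT and -0.15 in GTD272. Rab1 was at -0.41 in GTWT and -0.09 in GTD272, Rab28 at -0.47 in GTWT and -0.10 in GTD272, and Rab9 at -0.42 in GTWT and -0.10 in GTD272. Rab30 was at -0.65 in GTWT and 0.13 in GTD272, the one gene of the 12 besides Rab7 whose sign differs.

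GTWT against GTD272 sets libraries side by side that were both injected and cultured and differ in the residue of the encoded protein and in Marf1 level. Rab1, Rab28 and Rab30 fell and Rab7 rose in GTWT, and 39 of 43 tested Rab genes did not pass, against 1.84% of all genes lower and 0.625% higher. Rab1 averaged 64.1 ± 5.32 FPKM in GTWT and 80.0 ± 1.40 FPKM in GTD272 (SD, n = 4) and fell by 0.32 (SE 0.06, limma adjusted p = 0.0172). Rab28 fell by 0.37 (SE 0.08, limma adjusted p = 0.0342), at 19.5 ± 1.75 FPKM in GTWT and 25.5 ± 2.45 FPKM in GTD272. Rab30 fell by 0.78 (SE 0.19, limma adjusted p = 0.0435), at 7.70 ± 2.25 FPKM in GTWT and 13.7 ± 2.68 FPKM in GTD272. Rab7 rose by 0.21 (SE 0.05, limma adjusted p = 0.0333), at 147 ± 4.97 FPKM in GTWT and 127 ± 5.08 FPKM in GTD272. For these 4 genes the 4 libraries of GTWT did not overlap those of GTD272, which held for 7 Rab genes and for 10.2% of all genes tested. In the authors' deposited table the Rab genes with a q-value under 0.05 were Rab1 (0.0149), Rab9 (0.0157) and Rab30 (0.00189), all lower in GTWT, against 3.71% of all genes tested, while Rab7 had 0.0995 and Rab28 0.0614.

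Apart from Rab1 these calls depended on single libraries. Rab28 was lost on leaving out, 1 at a time, GT replicate 4, GTD272 replicates 1, 3 and 4 and GTWT replicates 2, 3 and 4 (adjusted p = 0.0514 to 0.0854). Rab7 was lost in the same way for GT replicate 2, GTD272 replicates 1, 2 and 4 and GTWT replicates 1, 2 and 4 (adjusted p = 0.0518 to 0.0844), which left no rise. Rab30 was lost for every GT and GTD272 library and for GTWT replicates 2 and 4 (adjusted p = 0.0525 to 0.120). The count of falls was 1 when the library left out was GT replicate 4, GTD272 replicate 1, 3 or 4 or GTWT replicate 2 or 4. With GC and length trends removed, Rab28 was lost as well (limma adjusted p = 0.0944).

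**Figure D4:**
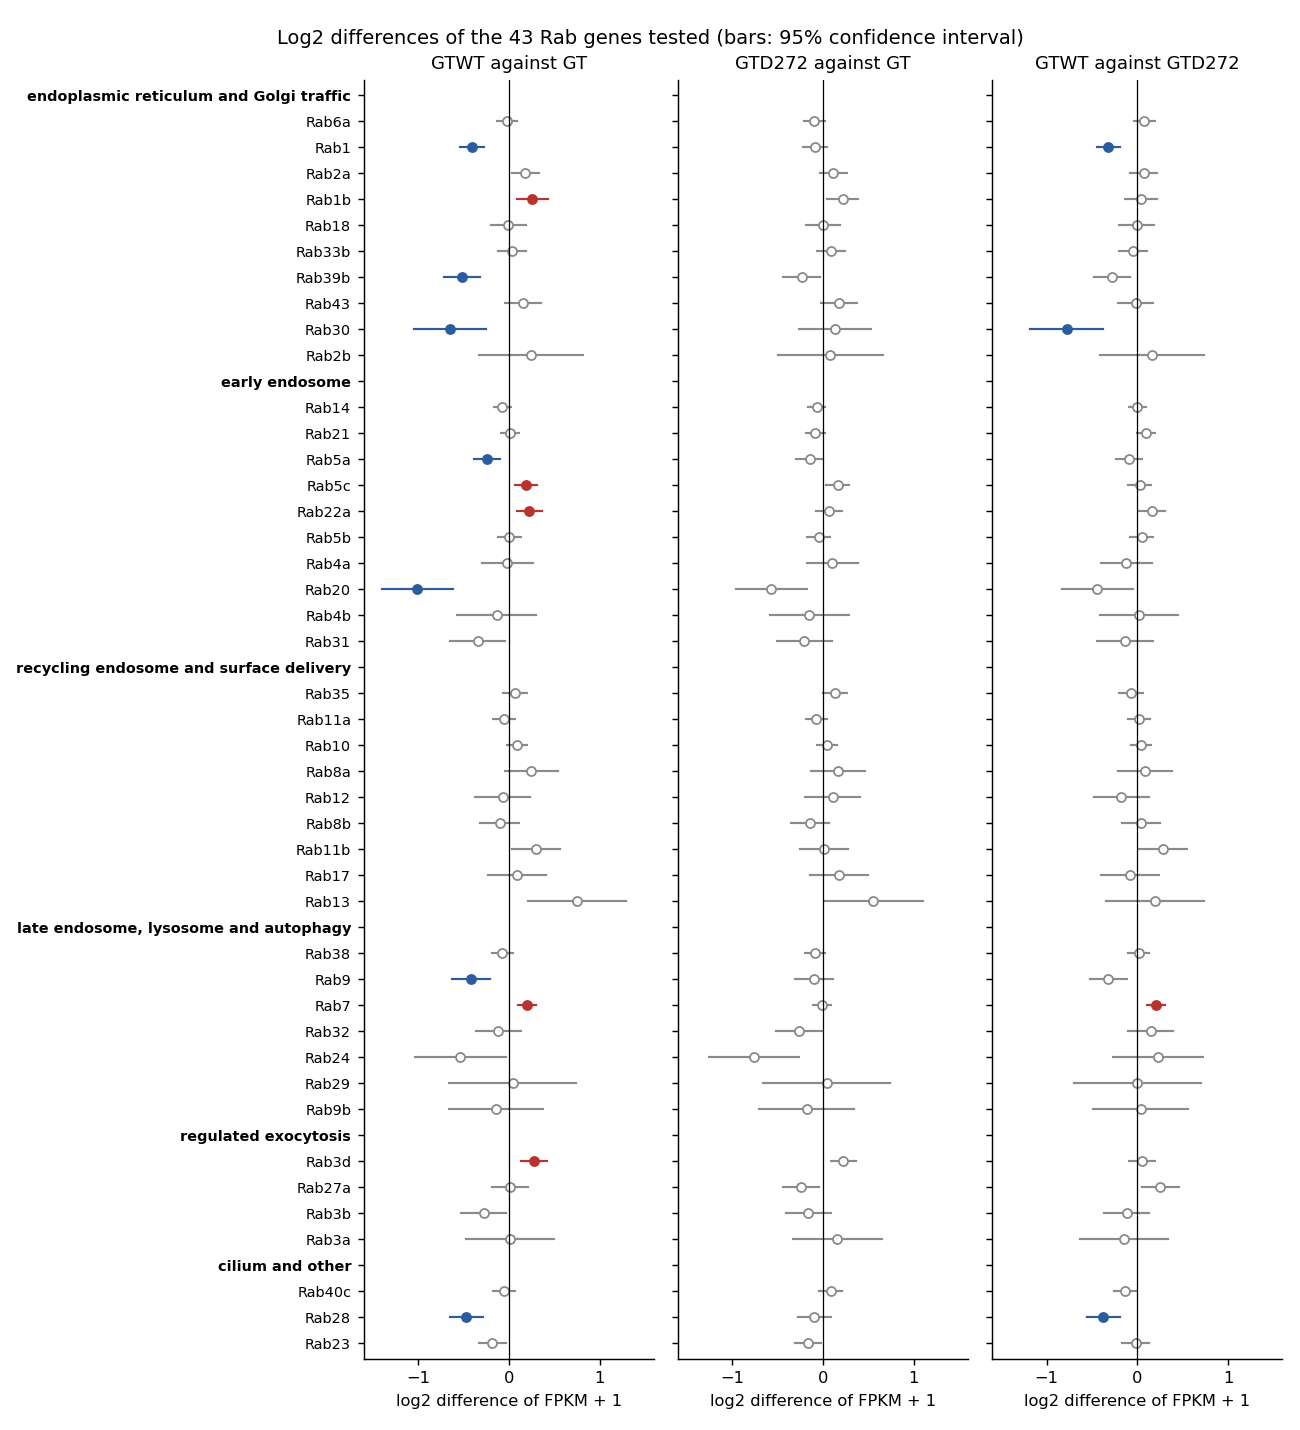
Log2 difference of FPKM + 1 with its 95% confidence interval for the 43 Rab genes tested, grouped by role, in the 3 comparisons. Filled blue points passed as lower and filled red points as higher (limma adjusted p under 0.05), 12 in GTWT against GT, 0 in GTD272 against GT and 4 in GTWT against GTD272.

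Sequence features of the Rab transcripts were examined beside the calls, in GENCODE M21 transcripts found for all 43 tested members. The longest protein-coding transcript of each gene was used, those in the basic GENCODE set being preferred. Which transcript the oocytes use was not tested. Median GC content was 42.3% in the 7 members that fell in GTWT against GT, from 38.1% in Rab30 to 56.1% in Rab20. It was 53.2% in the 5 that rose, from 47.6% in Rab22a to 58.9% in Rab1b, and 48.1% in the 31 not called. Over all genes tested the medians were 46.3% for those that fell, 51.9% for those that rose and 49.8% in total, so the Rab genes lay on the same side as the whole table. With each library's trends with GC content and transcript length removed, Rab1, Rab9, Rab20, Rab28 and Rab39b still fell, and Rab1b, Rab3d, Rab7 and Rab22a still rose, joined by Rab2a, Rab10 and Rab13 (for Rab13 with the limit given above). Rab5a, Rab5c and Rab30 no longer passed (adjusted p = 0.349, 0.0607 and 0.0625).

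**Figure D5:**
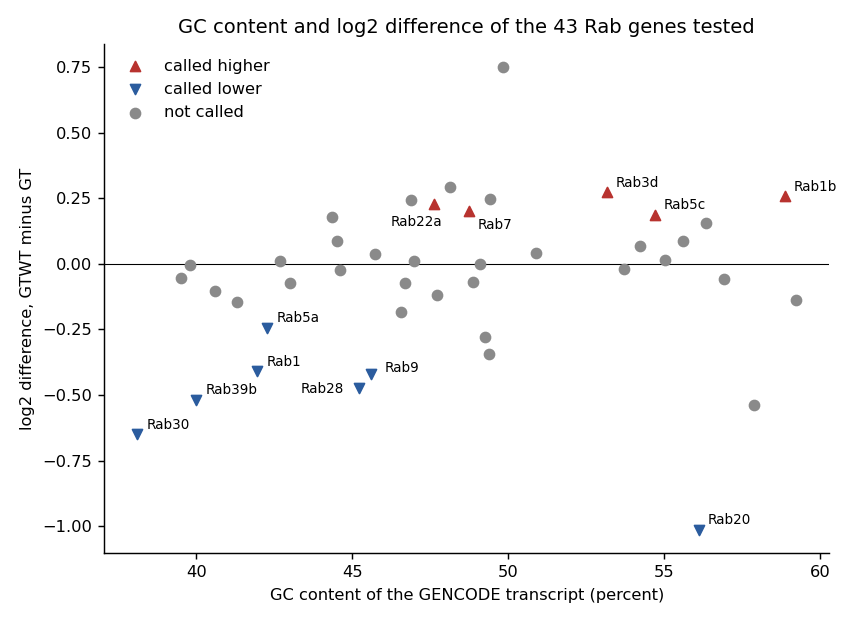
GC content of the GENCODE transcript (percent) against the log2 difference of GTWT minus GT for the 43 Rab genes tested, with called genes named. Of the 7 that fell, 6 lie at 45.6% GC or lower and Rab20 at 56.1%, and the 5 that rose lie between 47.6% and 58.9%.

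The last 50 bases of the transcripts were searched on the mRNA strand for the polyadenylation hexamers AATAAA and ATTAAA, and the 100 bases before the hexamer for TTTTAT or TTTTAAT, the letters of the cytoplasmic polyadenylation element that governs translation of stored oocyte mRNAs. Of members with a hexamer, 3 of 6 that fell held the element (Rab5a, Rab9 and Rab20), 1 of 5 that rose held it (Rab22a), and 4 of 21 not called did. Over all tested genes with a hexamer the share was 18.5%, with 29.4% among those that fell and 11.9% among those that rose. These are letter matches and no sign of use.

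Both X-linked members with more than 10 FPKM, Rab9 and Rab39b, fell in GTWT against GT, and the third X-linked member tested, Rab9b, at 0.704 ± 0.337 FPKM in GTWT and 0.861 ± 0.172 FPKM in GT (SD, n = 4), did not pass. Among all 402 X-linked genes tested, 19.2% fell and 2.49% rose in this comparison, against 10.2% and 6.26% of the other 11285 genes.

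Genes that load, unload and read Rab proteins were counted from lists of known partners, to be read against all genes tested, of which 10.5% fell and 6.14% rose in GTWT against GT at a median of -0.01. None of the 8 escort, prenylation and GDP dissociation inhibitor genes passed in any comparison in limma, and 0 did in the authors' deposited table. At an unadjusted p under 0.05 in limma, there were 0 in GTD272 against GT, against 19.0% of all genes tested. There were 1 in GTWT against GT and 2 in GTWT against GTD272. The share of all genes at that level is not given here for these comparisons, so their counts are not read as high or low. Of 47 GEF genes tested 4 fell and 5 rose in GTWT against GT (19.1% called, near the share of all genes), with a median difference of 0.00. Rabgef1, which encodes a Rab5 exchange factor, fell to 30.3 ± 5.66 FPKM in GTWT, against 47.3 ± 3.13 FPKM in GT (SD, n = 4, log2 -0.64, SE 0.11, limma adjusted p = 0.00234). Trappc13, a subunit of the TRAPP complex that acts on Rab1, fell to 67.0 ± 9.82 FPKM in GTWT, against 107 ± 7.45 FPKM in GT (log2 -0.67, SE 0.10, limma adjusted p = 0.000762). Rin1, another Rab5 exchange factor, rose to 3.85 ± 0.308 FPKM in GTWT, against 2.01 ± 0.649 FPKM in GT (log2 0.71, SE 0.16, limma adjusted p = 0.00858). Rabgef1, Trappc13 and Rin1 differed by -0.22, -0.35 and 0.62 in GTD272 against GT and did not pass (limma adjusted p = 0.318, 0.0737 and 0.0538).

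Of 33 GAP genes tested 2 fell and 4 rose in GTWT against GT (18.2% called, near the share of all genes, 10.5% lower and 6.14% higher), with a median difference of 0.08. Tbc1d12, a TBC domain gene, fell to 0.955 ± 0.266 FPKM in GTWT, against 3.23 ± 0.645 FPKM in GT (log2 -1.11, SE 0.18, limma adjusted p = 0.00138). It was at 0.815, 0.875, 1.35 and 0.779 FPKM in the GTWT libraries. Tbc1d12 thus passed the filter on low values through its higher GTD272 and GT libraries. This fall, counted among the 2 above, is therefore not read as a result. Tbc1d1, a GAP of Rabs in glucose transporter traffic, had 41.5 ± 3.27 FPKM in GTWT, 31.9 ± 2.16 FPKM in GTD272 and 33.6 ± 2.07 FPKM in GT, and rose in GTWT against both (log2 0.37 against GTD272 and 0.29 against GT, limma adjusted p = 0.0217 and 0.0161). Its call against GTD272 ended on leaving out, 1 at a time, GTD272 replicates 1 and 4 and GTWT replicate 2 (adjusted p = 0.0556 to 0.0575). Sgsm1, another TBC domain gene, rose by 0.43 in GTWT against GT (SE 0.10, limma adjusted p = 0.00831). Tbc1d12 and Sgsm1 differed by -0.54 and 0.35 in GTD272 against GT and did not pass (limma adjusted p = 0.124 and 0.0702).

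Of 43 effector genes tested 2 fell and 5 rose in GTWT against GT, with a median difference near 0. The 16.3% called is about the share of all genes tested (10.5% lower and 6.14% higher). Rab11fip1, which binds Rab11 on recycling endosomes, had 13.98, 13.9, 13.7 and 13.7 FPKM in GTWT and 9.71, 10.9, 9.56 and 9.14 FPKM in GT, and rose by 0.46 (SE 0.08, limma adjusted p = 0.00262). Wdr44, another Rab11 binder, fell by 0.61 (SE 0.17, limma adjusted p = 0.0258), a call ended by leaving out, 1 at a time, GT replicates 1, 2 and 4 and GTWT replicates 2 and 4 (adjusted p = 0.0503 to 0.0730). Zfyve26, a FYVE domain gene, rose by 0.40 (SE 0.10, limma adjusted p = 0.0171), a call ended by leaving out either GT replicate 2 or GTWT replicate 2 (adjusted p = 0.0515 to 0.0537). Neither Wdr44 nor Zfyve26 passed with GC and length trends removed (limma adjusted p = 0.0760 and 0.0607). Rab11fip1, Wdr44 and Zfyve26 differed by 0.17, -0.23 and 0.21 in GTD272 against GT and did not pass (limma adjusted p = 0.278, 0.505 and 0.296).

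Of 19 tether genes of the HOPS, CORVET and exocyst complexes 5 rose and none fell in GTWT against GT (26.3% called), against 6.14% of all genes higher and 10.5% lower. Their median difference was 0.23 and that of all genes tested -0.01. Vps39, the HOPS subunit that binds Rab7, had 16.1, 17.5, 15.3 and 17.5 FPKM in GTWT and 13.3, 13.8, 12.4 and 11.8 FPKM in GT, and rose by 0.35 (SE 0.08, limma adjusted p = 0.0118). Exoc3, an exocyst subunit, rose by 0.42 (SE 0.13, limma adjusted p = 0.0466), a call ended by leaving out, 1 at a time, each GT library, GTD272 replicate 3 and GTWT replicates 2, 3 and 4 (adjusted p = 0.0584 to 0.119). Vps11, shared by HOPS and CORVET, rose by 0.38 (SE 0.12, limma adjusted p = 0.0460), a call ended by leaving out any 1 of the 12 libraries (adjusted p = 0.0536 to 0.123). Nor did Vps11 pass with GC and length trends removed (limma adjusted p = 0.0615). Vps39, Exoc3 and Vps11 differed by 0.02, 0.14 and 0.21 in GTD272 against GT and did not pass (limma adjusted p = 0.910, 0.616 and 0.374). In GTD272 against GT 0 genes of the GEF, GAP, effector and tether lists passed in limma (11, 7, 9 and 3 of them at an unadjusted p under 0.05, and 3, 1, 1 and 1 in the authors' deposited table). Over all genes tested in that comparison 2.95% passed in limma, 19.0% were at an unadjusted p under 0.05, and 3.59% had a q-value under 0.05 as lower and 2.73% as higher in the authors' deposited table.

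The Arf and Arl genes, small GTPases that also act in membrane traffic, were counted in the same way. Of 24 tested 3 fell and 3 rose in GTWT against GT (25.0% called), against 10.5% of all genes lower and 6.14% higher. The largest difference among them was that of Arf4, a Golgi Arf, at -0.54 (SE 0.11, limma adjusted p = 0.00565). It was -0.26 in GTD272 against GT and did not pass (limma adjusted p = 0.224). In GTD272 against GT 1 of the 24 Arf and Arl genes rose, against 165 of all 11687 genes tested. This was Arf1, named here after its values were seen, at 0.19 (limma adjusted p = 0.0382). In GTWT against GT Arf1 rose by 0.26 (limma adjusted p = 0.00146). In GTWT against GTD272, Tbc1d1 was the 1 gene called in limma over the escort, GEF, GAP, effector, tether and Arf lists, against 1.84% of all genes lower and 0.625% higher.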

How the data were processed

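RNA was measured in 12 libraries of mouse oocytes, 4 per group, with groups read from the sample titles. Per the labels' protocols, NEBNext Ultra library preparation was followed by paired reads of 150 bases. The protocols name both RNeasy and Smart-seq2 steps, and both oocytes and lysed ovaries, as starting steps. The authors aligned reads to mm10 with TopHat2 2.0.13 and computed FPKM with Cufflinks 2.2.1, per the submitters' processing notes. The deposited p-values and q-values came from Cuffdiff, per the labels. For the gene annotation and any use of strand, nothing is stated beyond that (not given in the sources used here).

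The table's header stands 1 column left of its values and was realigned, and 27 symbols turned into dates were left unmatched. FPKM is a share of a library, so totals per oocyte are not seen, and read counts are not given: relative depth came from low values, where 87.5% of 68584 pairs stood in a ratio of whole numbers of at most 5 (tolerance 0.02, log2). The filter asked for FPKM 1 or more in 4 or more libraries and kept 11687 genes. Their log2(FPKM + 1) went into limma 3.58.1 (R 4.3.3, trend option on) as 1 model of all 12 libraries without covariates. P-values were Benjamini-Hochberg adjusted over all genes kept, and calls were made under 0.05. This scale understates differences of low genes. The script was tested on simulated data. The labels give no batch. Transcripts came from GENCODE M21 and gene coordinates from RefSeq, both on GRCm38, and tables were joined with Python 3.11.15 and pandas 2.3.3.

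Named were all Rab genes called in any comparison, the 8 highest, the Rab1, Rab3, Rab5, Rab11 and Rab27 paralogs, the untested members by their highest value, and at most 3 called genes per partner list. 1 further gene list is not reported here. Rab13, Rab24, Rab31 and the genes listed as not called were named after their values were seen. The members and all lists were chosen with earlier results of these data known. Alternatives were other pseudocounts, filters, scalings, a replicate block, other fits, each library left out, and, added after seeing the data, removal of trends with GC content and transcript length.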

Additional observations from a re-analysis of the deposited data

Results flagged for a closer look

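In groups of 4, a library far from the other 3 (its gap to the nearest, as a share of the group's range, above Dixon's 95% critical value) was looked for in 69 groups of the 23 named Rab genes. It was found in 3 of them, all in GTWT, where chance gives about 1 in 20. Rab28 was at 22.1 FPKM in GTWT replicate 1 and at 18.4 to 18.7 FPKM in the other 3. Rab7 was at 155 FPKM in GTWT replicate 1 and at 144.6 to 145.2 FPKM in the others. Rab5c was at 78.6 FPKM in GTWT replicate 3 and at 88.9 to 90.1 FPKM in the others.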

How the results depend on the processing

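In GTWT against GT, the 5 rises became 3 with no filter on low values or only the 2 groups compared, and 2 without the mean-variance trend. In GTWT against GTD272, the 3 falls became 1 with no filter, with only the 2 groups or with the replicate block and 0 without the trend, and the 1 rise became 0 with the block, the 2 groups or no trend. Removal of GC and length trends left 2 falls and 1 rise in that comparison. Leaving out 1 library gave 5 to 7 falls and 2 to 5 rises in GTWT against GT, 0 to 1 of each in GTD272 against GT, and 1 to 4 falls and 0 to 1 rises in GTWT against GTD272. The cause of these shifts was not tested. The replicate block gave 6 falls (Rab30 no longer passing, limma adjusted p = 0.0568) and 5 rises in GTWT against GT and 0 in GTD272 against GT. Same-numbered libraries did not vary together (correlations of -0.22 to 0.21, 2 of 12 above 0.1, and 3 of 12 libraries best matched to their own number), so the numbers were not taken as pairs. No Rab call changed sign under any alternative run. A pseudocount of 0.1, a filter at FPKM 5 and median ratio rescaling kept the counts of falls and rises in all 3 comparisons. Members under 10 FPKM varied more within groups than higher ones, which limits the differences that could be detected in them.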
